A study of Mus musculus with 22 samples.

Results

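The 44 protein-coding collagen genes of the mouse were examined for hnRNP A1 footprints in the spinal cord. They were taken by symbol alone, as Col, a number, a and a number, from the 21951 protein-coding genes of the GENCODE release M21 annotation of GRCm38. By class, 11 encode chains of fibrillar collagens, 8 encode chains of basement membrane collagens (types IV, XV and XVIII) and 25 encode other collagens. A footprint is a stretch of genome that was recovered with hnRNP A1 in 1 mouse and was still listed after subtraction of the background. It was counted for a gene when it overlapped the gene's span by at least 1 nt.

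CLIPseq crosslinks a protein to its RNA with ultraviolet light, immunoprecipitates the protein and sequences the RNA that comes with it. Spinal cords of 10 wild-type female C57Bl/6 mice were used, each giving 1 library made with an antibody to hnRNP A1 (clone 9H10 in the sample labels), and each mouse is 1 replicate. The 3 naïve mice (Naïve_1, Naïve_2 and Naïve_3) were age-matched and not immunized. The 7 EAE mice had experimental autoimmune encephalomyelitis, a model of multiple sclerosis, induced with MOG(35-55) peptide in complete Freund's adjuvant and 100 ng of pertussis toxin on each of the first 2 days, and were killed 15 days after clinical onset. The labels give 12 weeks as the age at immunization and the series' design text gives 8 weeks. Mild EAE comprised EAE_3 and EAE_4 (clinical score 1.5) and EAE_7 (score 1.0), and severe EAE comprised EAE_1 and EAE_5 (score 2.5) and EAE_2 and EAE_6 (score 3.0). Whole cord extruded from the spine was used, and no step that separates meninges or vessels from neural tissue is described.

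The lists differed widely in length, and the severe EAE group most of all. The 3 naïve lists held 17119 to 17494 footprints and the 3 mild lists 9751 to 24433. In severe EAE, EAE_5 had 31870 footprints, whereas EAE_1, EAE_2 and EAE_6 had 2670, 209 and 673. The paper describes EAE_5, under another label, as an outlier of the severe group, with binding like that of naïve and mild mice. It also reports that this mouse had been in remission shortly before the end of the experiment. Values of the leading collagen genes in severe EAE are given below by mouse. Some counts, unions and medians are pooled over the group and depend heavily on EAE_5 or on the short lists. Among markers of the cell types of the cord, all 6 oligodendrocyte genes and all 6 neuronal genes examined had a footprint in some mouse, but EAE_2 and EAE_6 had no footprint in any of the 6 neuronal genes, nor EAE_2 in any of the 5 astrocyte genes.

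Collagens are secreted proteins in which 3 chains wind around each other. Each chain repeats glycine at a fixed interval, so that the coding sequence of its helical region carries a GGN codon every 9 nt, and fibrillar collagen genes are built of many short exons, often of 54 nt. In the central nervous system fibrillar collagens such as types I and III are known from the meninges and from fibroblasts around vessels, and type IV collagen is the main network of the vascular basement membrane. hnRNP A1 is a nuclear RNA binding protein known for its part in splicing, with a preference for UAG motifs.

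Collagen footprints were made almost wholly of coding exons. The stretches covered in the most mice all lay in the genes of type XI collagen, Col11a1 and Col11a2, and no stretch of any collagen gene was covered in more than 7 of the 10 mice. The 7 stretches below were each covered in the 3 naïve mice, the 3 mild mice and EAE_5. They are shown 5′ to 3′ on the strand of the gene, from the GRCm38 reference, with in-frame GGN codons in capitals.
Col11a2 chr17:34059106-34059172, plus strand, 67 nt: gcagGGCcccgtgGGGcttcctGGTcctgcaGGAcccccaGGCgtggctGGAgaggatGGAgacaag
Col11a2 chr17:34059293-34059346, plus strand, 54 nt: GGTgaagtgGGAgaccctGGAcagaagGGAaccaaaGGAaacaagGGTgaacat
Col11a2 chr17:34054837-34054883, plus strand, 47 nt: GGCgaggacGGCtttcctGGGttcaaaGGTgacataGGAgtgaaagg
Col11a2 chr17:34054305-34054349, plus strand, 45 nt: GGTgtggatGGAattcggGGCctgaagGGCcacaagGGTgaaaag
Col11a2 chr17:34054168-34054203, plus strand, 36 nt: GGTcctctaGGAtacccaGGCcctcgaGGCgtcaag
Col11a1 chr3:114124201-114124228, plus strand, 28 nt: tGGTtatcctGGTccccgtGGAgtaaag
Col11a1 chr3:114167010-114167030, plus strand, 21 nt: gttGGTgctcctGGAatcgct
In these stretches the capitals recur every 9 nt, as in the glycine repeat. UAG occurred in 2 of the 7 stretches and AGGU in 1.

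A stretch of 97 nt of Col11a1 shared by 6 mice, the 3 naïve mice, EAE_3, EAE_4 and EAE_5, is shown beside them because, unlike them, it holds a single GGN codon, among 32 codons.
Col11a1 chr3:114208264-114208360, plus strand, 97 nt: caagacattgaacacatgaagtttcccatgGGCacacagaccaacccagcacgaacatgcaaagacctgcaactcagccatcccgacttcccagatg

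Of the 1340 footprints in collagen genes, 1307 (97.5%) had their midpoint in coding sequence, 10 (0.746%) in an untranslated region and 23 (1.72%) in an intron. Among the 123980 footprints in other protein-coding genes the corresponding shares were 62.1%, 7.91% and 29.1%. The separation held in every mouse. The coding share ran from 90.0% in EAE_6, where 1 of 10 footprints was intronic, to 100% in EAE_1 and EAE_2 for collagen genes, and from 29.9% in EAE_2 to 79.0% in EAE_3 for the others. No collagen library came below the highest library of the other genes.

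The footprints also followed exon boundaries. An edge within 2 nt of an annotated exon edge on the same side was seen for 1292 of the 1340 collagen footprints (96.4%), against 54.3% elsewhere. A footprint that was 1 whole exon to within 2 nt at both ends accounted for 684 collagen footprints (51.0%), against 13.0% elsewhere, and 286 of the 684 (41.8%) were exons of 54 nt. The median footprint was 54 nt long in collagen genes and 115 nt in other protein-coding genes. Collagen coding exons are themselves shorter, with a median coding stretch of 63 nt against 124 nt, and the part of exon length in these differences was not tested.

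Neighbouring collagen footprints were often joined by an annotated intron, the first ending where the intron starts and the next starting where it ends. The authors aligned assembled contigs to the genome with splicing allowed, which breaks 1 contig into 1 block per exon, so such footprints may be pieces of a single contig and are not independent. Joining them turned the 1340 collagen footprints into 521 runs, with a median of 146 nt (quartiles 120 and 181 nt) and at most 13 footprints, in Col16a1 of EAE_3. Counts of footprints in these many-exon genes are for that reason given beside covered nucleotides, the number of nucleotides of a gene's span under footprints in 1 mouse.

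**Figure D1:**
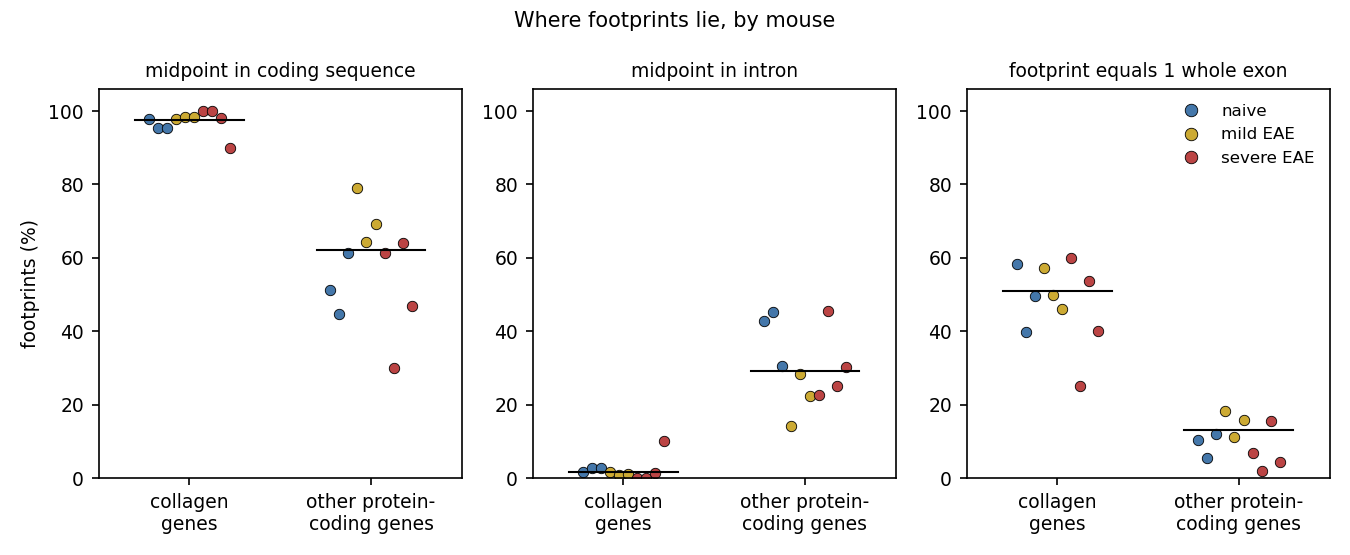
Percentage of footprints (y axis) with the midpoint in coding sequence (left), in an intron (middle) or equal to 1 whole exon within 2 nt (right), for collagen genes and for other protein-coding genes. Each point is 1 mouse, coloured by group, and the line is the share over all mice, for example 97.5% against 62.1% in coding sequence.

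Sequence composition differed between collagen footprints and other coding footprints, and less so between footprinted and other collagen exons. On the strand of the gene, in footprints with a coding midpoint that overlapped only 1 annotated gene, UAG occurred 2.94 times per 1000 nt in collagen genes and 5.43 times in other protein-coding genes. It was sparser in collagen genes in 9 of 10 mice and denser in EAE_2 (3.98 against 3.53 per 1000 nt). AGGU occurred 6.74 and 3.13 times per 1000 nt, a motif that overlaps UAG in UAGGU. AGGU was denser in collagen genes in 9 of 10 mice and sparser in EAE_2 (1.99 against 4.29 per 1000 nt), which has 12 collagen footprints. Coding exons without any footprint in the footprinted collagen genes had 3.68 UAG and 5.92 AGGU per 1000 nt. GGN codons made up 26.9% of the 11783 footprinted codons and 20.3% of the 31531 other codons of the footprinted collagen genes. The other codons include all those of Col4a6, Col14a1 and Col26a1, which had no footprinted codon, and genes weigh unequally in this pooled comparison. By gene, the GGN share was higher in footprinted codons in 19 of the 26 genes with any footprinted codon and lower in 7. The difference was wide in some genes, such as Col11a1 (26.9% against 14.7%), Col11a2 (29.4% against 16.4%) and Col6a2 (30.3% against 8.73%), while it ran the other way in Col1a1 (23.7% against 32.2%), Col3a1 (25.3% against 29.5%) and Col18a1 (8.09% against 16.8%), and by less in Col4a1, Col4a5, Col9a2 and Col12a1.

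Across genes, 29 of the 44 collagen genes had a footprint in at least 1 mouse, against 45.6% of all protein-coding genes. The 15 genes without one were Col2a1, Col4a4, Col6a3, Col6a4, Col6a5, Col6a6, Col8a1, Col8a2, Col9a1, Col10a1, Col13a1, Col17a1, Col20a1, Col22a1 and Col28a1. Several of these are known from cartilage (Col2a1, Col9a1, Col10a1) or epithelium (Col17a1). Other collagens known from cartilage went the other way. Col11a1 and Col11a2 had 209 and 174 footprints, and Col9a2 and Col9a3 were footprinted in 5 and 4 mice. In at least 2 naïve mice 14 collagen genes were footprinted (31.8%), against 18.3% of protein-coding genes. In at least 2 mild EAE mice there were 20 (45.5%), against 17.3%. In at least 2 severe EAE mice there were 5 (11.4%), against 5.86%. Collagen genes are longer than other protein-coding genes (median span 114388 against 17350 nt) and have more exons (median 48 against 7), and the part of this in the shares was not tested. The naïve count was 10 without Naïve_1, the mild count was 17 without EAE_3, and the severe count of 5 was 2 without EAE_5 and 3 without EAE_1.

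Fibrillar collagens held 742 of the 1340 collagen footprints (55.4%), basement membrane collagens 221 (16.5%) and other collagens 377 (28.1%). Of the 11 fibrillar genes 10 had a footprint in some mouse, of the 8 basement membrane genes 7 and of the 25 others 12. By the rule of at least 2 mice, the fibrillar genes numbered 6 in naïve, 10 in mild and 3 in severe EAE, the basement membrane genes 3, 4 and 1, and the other genes 5, 6 and 1.

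**Figure D2:**
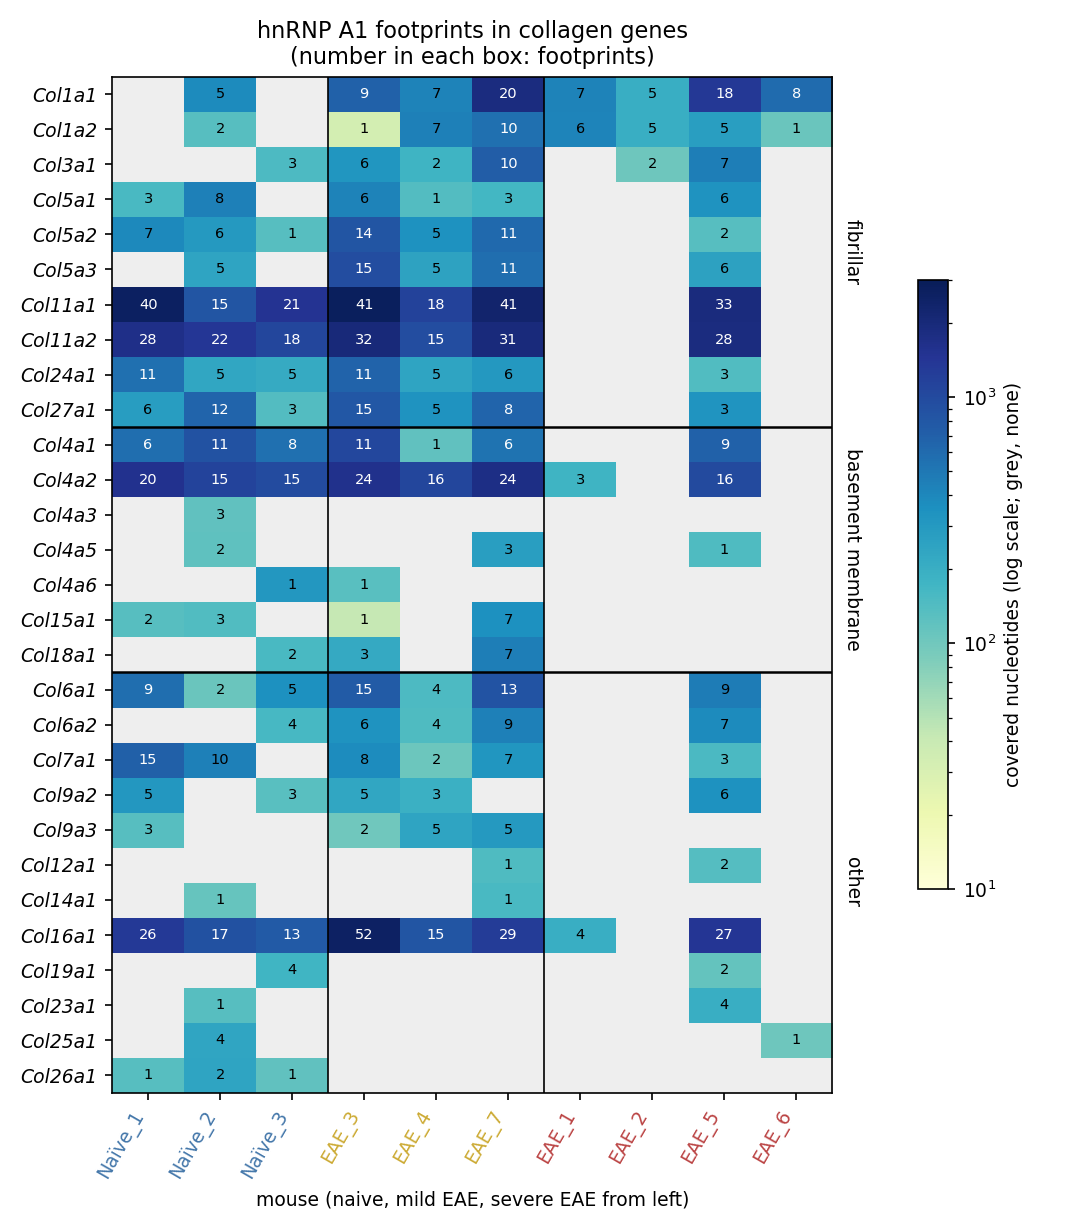
Covered nucleotides (colour, log scale, grey for none) and number of footprints (printed in each box) for the 29 collagen genes with a footprint, by mouse, with horizontal lines between classes and vertical lines between groups. EAE_1, EAE_2 and EAE_6 are empty except for Col1a1, Col1a2 and 4 further genes.

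As a share of all footprints of a mouse, collagen genes took 1.06%, 0.865% and 0.612% in Naïve_1 to Naïve_3. In mild EAE they took 1.91% in EAE_3, 1.23% in EAE_4 and 1.08% in EAE_7, each above every naïve mouse, though EAE_7 barely so. In severe EAE they took 0.749% in EAE_1, 5.74% in EAE_2, 0.618% in EAE_5 and 1.49% in EAE_6, and so overlapped the naïve range at the lower end. The share in EAE_2 rests on 12 of 209 footprints and that in EAE_6 on 10 of 673, with exact 95% binomial intervals of 3.00 to 9.81% and 0.715 to 2.72%. These intervals cover counting error only and take footprints as independent, which runs of exons are not. The mean share was 0.847% ± 0.226 (SD, n = 3) in naïve, 1.41% ± 0.445 (SD, n = 3) in mild and 2.15% ± 2.43 (SD, n = 4) in severe EAE. EAE minus naïve was 0.984 percentage points, 0.332 without EAE_2, and smaller than the pooled SD of 1.54.

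Type I collagen genes were footprinted in all 7 EAE mice and in 1 of 3 naïve mice, a difference that did not pass the test given below. Col1a1 and Col1a2 encode the α1 and α2 chains of type I collagen, the main fibrillar collagen of scars, bone and meninges. In naïve mice, Col1a1 had 0, 386 and 0 covered nucleotides in Naïve_1, Naïve_2 and Naïve_3. In mild EAE it had 681 in EAE_3, 424 in EAE_4 and 1848 in EAE_7. In severe EAE it had 423 in EAE_1, 201 in EAE_2, 1372 in EAE_5 and 590 in EAE_6. The EAE mice with footprints thus included those with the shortest lists. The mild mice all lay above the naïve mice, and of the severe mice only EAE_2 lay below Naïve_2.

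Col1a2 had 0, 134 and 0 covered nucleotides in Naïve_1, Naïve_2 and Naïve_3. It had 33, 448 and 554 in EAE_3, EAE_4 and EAE_7, and 415, 200, 274 and 108 in EAE_1, EAE_2, EAE_5 and EAE_6. Again all 7 EAE mice and 1 naïve mouse had footprints, but EAE_3 and EAE_6 lay below Naïve_2. Only 14 protein-coding genes (0.0638%) were footprinted in each of the 7 EAE mice, and Col1a1 and Col1a2 were 2 of them. In each of EAE_1, EAE_2 and EAE_6, the mice with short lists, 15 genes (0.0683%) were footprinted. These necessarily include the 14, so the 2 counts are not separate observations.

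The Col1a1 values were also set against list length. Per 1000000 covered nucleotides of the mouse, Col1a1 ranged from 0 to 188 in naïve mice and from 331 in EAE_5 to 8252 in EAE_2. Each EAE mouse was above every naïve mouse on this scale for 6 of 5481 tested genes (0.109%), and Col1a1 was the only collagen gene among them. The tested genes are those footprinted in at least 3 of the 10 mice. Col1a1, footprinted in 1 naïve mouse, met this only with the EAE mice counted, so its place here is no support. In the short lists any footprint scores high on this scale, as 102 covered nucleotides of Col3a1 in EAE_2 gave 4187. For EAE_1, EAE_2 and EAE_6 a value above the naïve mice is thus close to fixed once a footprint is present. By covered nucleotides, Col1a1 ranked 1 of 395 footprinted protein-coding genes in EAE_6, 93 of 1199 in EAE_1 and 21 of 107 in EAE_2. It ranked 385 of 4042 in EAE_3, 529 of 3004 in EAE_4, 175 of 5605 in EAE_7 and 476 of 6476 in EAE_5, and 1114 of 5283 in Naïve_2. Relative to the length of the list, the ranks in EAE_2 and Naïve_2 were alike. Of all collagen footprints of a mouse, Col1a1 and Col1a2 held 13 of 20 (65.0%) in EAE_1, 10 of 12 (83.3%) in EAE_2 and 9 of 10 (90.0%) in EAE_6. In the other 4 EAE mice they held 3.60 to 11.7%, and in naïve mice 0, 4.64 and 0%. The single other collagen footprint of EAE_6 lay in an intron of Col25a1, and the 2 others of EAE_2 lay in Col3a1.

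**Figure D3:**
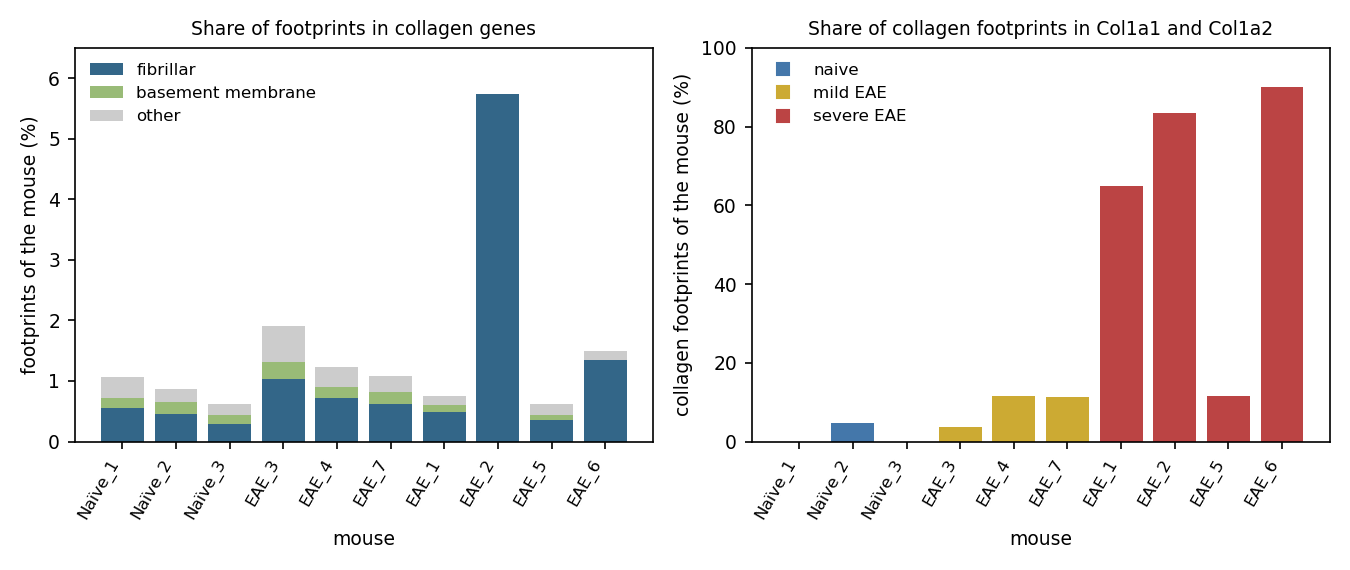
Left, percentage of all footprints of a mouse that overlap a collagen gene, split by class. Right, percentage of a mouse's collagen footprints that lie in Col1a1 or Col1a2, which is 65.0 to 90.0% in EAE_1, EAE_2 and EAE_6 and at most 11.7% in the other 7 mice.

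The type I footprints of the mice with short lists fell partly on the same exons. The whole exon of Col1a1 shown first was covered in EAE_3, EAE_7, EAE_1, EAE_5 and EAE_6, and in part in EAE_2. The whole exon of Col1a2 shown second was covered in EAE_1 and EAE_6. Neither was covered in a naïve mouse. Both are 108 nt long and are shown, with in-frame GGN codons in capitals, because they are the longest stretches shared among EAE_1, EAE_2 and EAE_6, a choice made after the values were seen.
Col1a1 chr11:94947883-94947990, plus strand, 108 nt: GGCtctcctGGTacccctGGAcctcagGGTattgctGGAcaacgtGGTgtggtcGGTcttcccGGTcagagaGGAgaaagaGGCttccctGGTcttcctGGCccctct
Col1a2 chr6:4531238-4531345, plus strand, 108 nt: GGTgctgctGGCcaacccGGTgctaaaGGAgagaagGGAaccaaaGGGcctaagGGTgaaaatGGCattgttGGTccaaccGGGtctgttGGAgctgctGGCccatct
Neither exon contains UAG or AGGU, and each holds 12 GGN codons among 36. The 5 Col1a1 footprints of Naïve_2 covered 327 coding nucleotides (7.50% of the coding sequence). The union over mild mice covered 2041 (46.8%) and that over severe mice 1917 (44.0%).

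**Figure D4:**
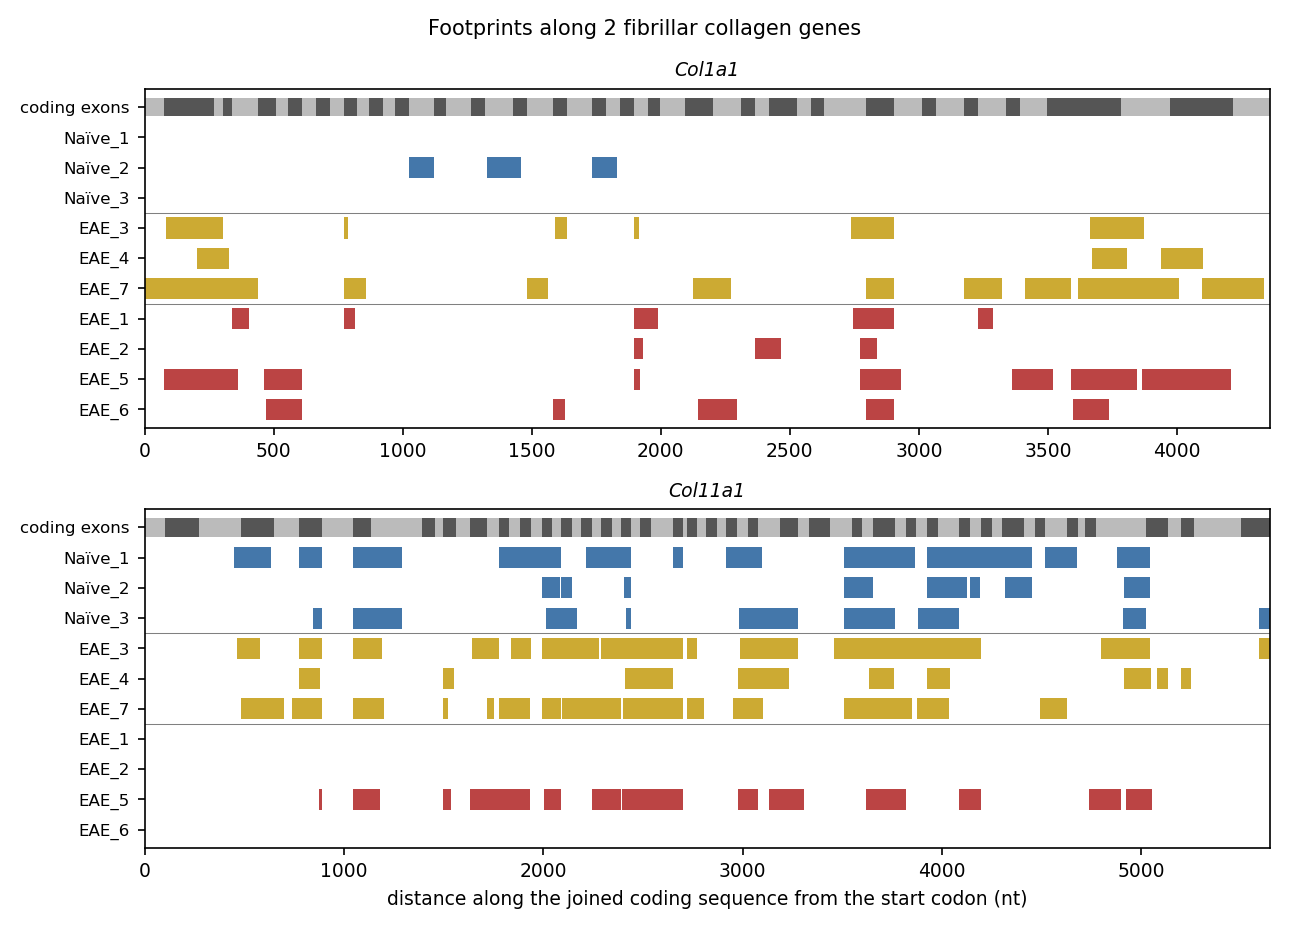
Footprints of each mouse (rows, coloured by group) along the joined coding sequence of Col1a1 (top) and Col11a1 (bottom), x axis in nt from the start codon, with alternating grey boxes for coding exons. Col1a1 has footprints in all 7 EAE mice and in Naïve_2, whereas Col11a1 has them in all naïve and mild mice and in EAE_5.

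No collagen gene passed the test between EAE and naïve mice. The test was a two-sided exact permutation test of the difference in mean covered nucleotides for each of 5481 protein-coding genes footprinted in at least 3 of the 10 mice, with Benjamini-Hochberg adjustment over all of them, and 22 collagen genes were among these. Of all tested genes 0 (0%) passed an adjusted p of 0.05 in any of the 3 comparisons, EAE, mild EAE or severe EAE against naïve. With 120 ways to choose 3 of 10 mice the smallest p is 0.00833, and 914 genes would have had to reach it for any to pass, whereas 97 did. For 3 against 3 mice the smallest p is 0.1, and for 3 against 4 it is 0.0286. At an unadjusted p under 0.05, EAE against naïve gave 1 gene higher in EAE (0.0182% of those tested) and 343 lower (6.26%). Among collagen genes these were 0 and 1, the latter being Col26a1, whose test carries no information, as described below.

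For Col1a1 the difference, EAE minus naïve, was 663 covered nucleotides with an exact permutation p of 0.0833 (adjusted 0.785, 3 against 7 mice). For Col1a2 it was 246, with an exact p of 0.0667 (adjusted 0.741). Per 1000000 covered nucleotides the exact p values were 0.075 and 0.317. Both genes had a footprint in 1 naïve mouse and passed the filter of 3 footprinted mice only with EAE mice counted. That selection favours differences above 0, so these p values are no support. Differences above 0 were found for 9 of the 22 tested collagen genes, with a median of -37.9 nt, against 38.8% of all tested genes and a median of -33.1 nt. All 9 but Col5a2 had a footprint in 1 naïve mouse and so passed the filter only with EAE mice counted. In mild EAE against naïve, 18 of 22 differences were above 0, with a median of 236 nt, against 51.2% and 2.67 nt over all tested genes. Of the 18 genes, Col4a5, Col5a3, Col6a2, Col9a3, Col15a1 and Col18a1 passed the filter of 3 footprinted mice only with the mild mice counted. That selection favours differences above 0, and the same filter applied to all tested genes. In severe EAE against naïve, 4 of 22 were above 0, with a median of -142 nt, against 28.7% and -59.3 nt. All 3 comparisons share the same 3 naïve mice, and 3 of the 4 severe lists are the short ones.

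The mild mice all lay above the naïve mice for 3 of the 22 tested collagen genes (13.6%), against 4.73% of tested genes, and all below for 1 (4.55%), against 5.36%. The 3 that were higher were Col1a1, Col3a1 and Col5a3, all fibrillar, and the gene that was lower was Col26a1. Col5a3 passed the filter of 3 footprinted mice only with the mild mice counted, so its place here is no support. In severe EAE, 3 collagen genes were lower than in naïve mice at an unadjusted exact permutation p of 0.0286 (Col5a2, Col24a1 and Col26a1), against 3.23% of tested genes. Each of these had no footprint in EAE_1, EAE_2 and EAE_6. Col26a1 passed the filter of 3 footprinted mice only through the naïve mice. Its place among the lower genes, in mild and in severe EAE, was therefore fixed in advance and is no support.

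Col3a1, the chain of type III collagen, which forms fibrils with type I, had 0, 0 and 151 covered nucleotides in the naïve mice. It had 322 in EAE_3, 178 in EAE_4 and 732 in EAE_7, and 102 in EAE_2, 460 in EAE_5 and 0 in EAE_1 and EAE_6. Mild mice were thus above all naïve mice, by a narrow margin in EAE_4, while the severe mice were spread around them (exact permutation p = 0.1, the smallest possible, for mild against naïve). Col5a3, a chain of the type V collagen that helps to start fibrils, had 0, 247 and 0 in naïve mice, 958, 252 and 568 in EAE_3, EAE_4 and EAE_7, and 256 in EAE_5 alone among the severe mice. Here EAE_4 exceeded Naïve_2 only narrowly.

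The other type V genes did not separate mild EAE from naïve mice. Col5a2 had 387, 299 and 134 covered nucleotides in Naïve_1, Naïve_2 and Naïve_3, 842, 344 and 613 in EAE_3, EAE_4 and EAE_7, and 133 in EAE_5. Naïve_1 lay above EAE_4. All 4 severe mice lay below every naïve mouse, though EAE_5, with the longest list of all, did so by a single nucleotide. Col5a1 was footprinted in 2 naïve mice, all 3 mild mice and EAE_5, with 141 to 451 covered nucleotides where present.

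**Figure D5:**
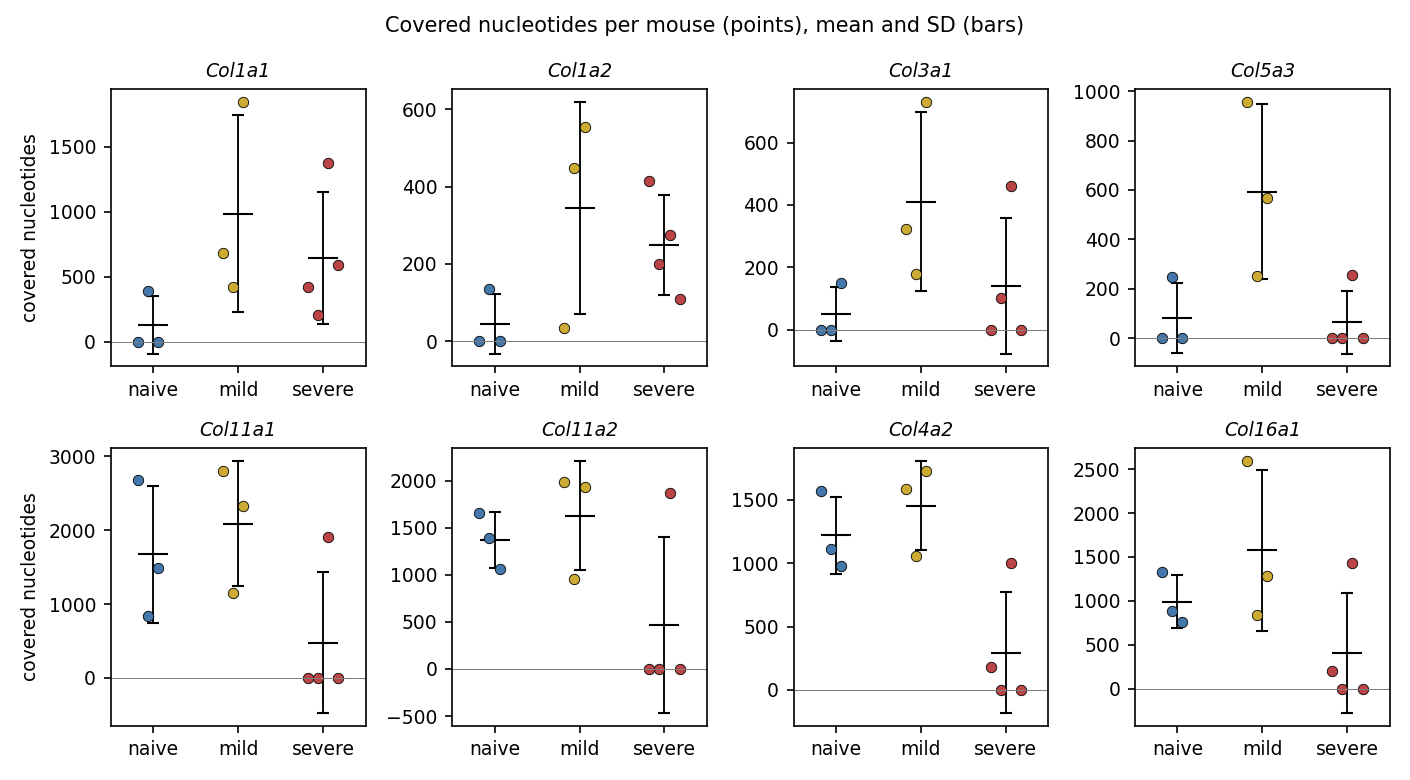
Covered nucleotides of 8 collagen genes (y axis, a scale for each panel) in naïve, mild EAE and severe EAE mice. Points are mice and bars the mean and SD, with 3, 3 and 4 mice, and the mild points lie above all naïve points for Col1a1, Col3a1 and Col5a3.

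Type XI collagen, which is known to set fibril diameter in cartilage and some other tissues, had more footprints than any other collagen type in each naïve mouse. Col11a1 had 2682, 842 and 1494 covered nucleotides in Naïve_1, Naïve_2 and Naïve_3, in 40, 15 and 21 footprints. It had 2800, 1150 and 2323 in EAE_3, EAE_4 and EAE_7, 1910 in EAE_5 and none in EAE_1, EAE_2 and EAE_6. Outside the 3 short lists the EAE values fell within or just above the naïve range. Col11a2 had 1652, 1391 and 1062 in the naïve mice, 1990, 959 and 1937 in the mild mice in the same order, and 1871 in EAE_5. Its naïve and EAE mice overlapped likewise, since EAE_4 lay below the naïve mice and EAE_3, EAE_7 and EAE_5 above them. Footprints of any mouse covered 69.3% of the coding sequence of Col11a1 and 62.0% of that of Col11a2, and together the pair held 24.5 to 37.4% of the collagen footprints of each naïve mouse.

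The difference, EAE minus naïve, was -504 nt for Col11a1 and -403 nt for Col11a2 (exact permutation p = 0.55 and 0.475, 3 against 7 mice). Without the mice with short lists, an alternative chosen after the values were seen, it was 373 and 321 nt. The sign of both differences therefore depends on EAE_1, EAE_2 and EAE_6.

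The remaining fibrillar genes, Col24a1 and Col27a1, were footprinted in the same 7 mice as type XI. Col27a1 had 282, 650 and 141 covered nucleotides in the naïve mice, 799, 332 and 648 in EAE_3, EAE_4 and EAE_7, and 329 in EAE_5. Its groups overlapped, with EAE_3 alone above the naïve range. Col24a1 had 214 to 559 in naïve mice, 244 to 660 in mild mice and 142 in EAE_5.

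Basement membrane collagens were dominated by Col4a2 and Col4a1, the α2 and α1 chains of the type IV network present in every vascular basement membrane. Col4a2 had 1565, 1108 and 981 covered nucleotides in Naïve_1, Naïve_2 and Naïve_3. It had 1582, 1056 and 1725 in EAE_3, EAE_4 and EAE_7, and 181 in EAE_1, 1000 in EAE_5 and none in EAE_2 and EAE_6. Naïve and mild mice overlapped, with a mean of 1218 ± 307 and 1454 ± 352 nt (SD, n = 3 each). EAE minus naïve was -426 nt (exact permutation p = 0.375, 3 against 7 mice), and 123 nt without EAE_1, EAE_2 and EAE_6. Of its 133 footprints, 45 also overlapped Gm15419, and the lists carry no strand with which to tell them apart.

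Col4a1 had 569, 867 and 564 covered nucleotides in the naïve mice, 1034, 121 and 532 in EAE_3, EAE_4 and EAE_7, and 677 in EAE_5. The spread within mild EAE, from the lowest to the highest value of any mouse with a footprint, was wider than the naïve range. The pair begins head to head on chromosome 8, and Col4a2 had more footprints than Col4a1 in each of the 8 mice with a footprint in either. The minor type IV genes had few. Col4a5 was footprinted in 3 mice (122 to 274 covered nucleotides), Col4a6 in 2, Col4a3 in 1 and Col4a4 in none.

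Col15a1 and Col18a1, which encode basement membrane collagens that carry heparan or chondroitin sulphate chains, had 42 to 353 and 155 to 461 covered nucleotides in the 4 and 3 mice where they were present. Neither had a footprint in a severe EAE mouse. Of the 12 footprints of Col18a1, 4 also overlapped Slc19a1, and of the 13 of Col15a1, 2 also overlapped Gm12426. The basement membrane share of all footprints, EAE minus naïve, was -0.0496 percentage points, below the pooled SD of 0.0892, and -0.0483 with type IV alone.

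Among the other collagens Col16a1 had the most footprints, 183 in all. It encodes type XVI collagen, one of the collagens that associate with fibrils through interrupted helices. Col16a1 had 1330, 887 and 758 covered nucleotides in Naïve_1, Naïve_2 and Naïve_3. It had 2595, 841 and 1284 in EAE_3, EAE_4 and EAE_7, and 201 in EAE_1, 1427 in EAE_5 and none in EAE_2 and EAE_6. EAE_3 stood far above the rest, with 52 footprints, while EAE_4 and EAE_7 lay inside the naïve range. Its difference, EAE minus naïve, was -84.8 nt (exact permutation p = 0.9), and it changed sign per 1000000 covered nucleotides and without any one of 4 mice (Naïve_1, EAE_1, EAE_2 or EAE_6).

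Col6a1, a chain of the beaded filaments of type VI, had 567, 108 and 353 covered nucleotides in the naïve mice, 745, 150 and 843 in EAE_3, EAE_4 and EAE_7, and 471 in EAE_5. Its partner Col6a2 was footprinted in Naïve_3 (161), in all mild mice (337, 146 and 443) and in EAE_5 (386). EAE_4 lay at the low end of both genes. Col6a3, which encodes the third chain of the common type VI heterotrimer, had no footprint in any mouse.

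Of the rest, Col7a1 (anchoring fibrils) was footprinted in 2 naïve mice, 3 mild mice and EAE_5, with 105 to 700 covered nucleotides. Col9a2 and Col9a3, chains of the type IX collagen that coats type II fibrils, were footprinted in 5 and 4 mice (130 to 338 and 101 to 297 covered nucleotides), although their partners Col9a1 and Col2a1 had none. Col12a1, Col14a1, Col19a1, Col23a1 and Col25a1 were each footprinted in 2 mice.

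Col26a1 was the only tested collagen gene with no coding footprint. It had 134, 242 and 121 covered nucleotides in Naïve_1, Naïve_2 and Naïve_3 and none in any of the 7 EAE mice, and the groups did not overlap. Each EAE mouse was below every naïve mouse for 3.3% of tested genes per 1000000 covered nucleotides, and Col26a1 was the 1 collagen gene among them. Col26a1 passed the filter of 3 footprinted mice only through the 3 naïve mice, so its groups had to differ and its test carries no information. The stretch of 89 nt common to the 3 naïve mice lies in an intron and is shown because it was the only intronic collagen stretch covered in all naïve mice and no EAE mouse, a choice made after the values were seen.
Col26a1 chr5:136810172-136810260, minus strand, 89 nt: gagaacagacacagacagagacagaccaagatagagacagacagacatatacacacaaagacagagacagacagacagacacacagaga
All 89 bases are soft-masked in the reference, which marks repeats and low-complexity sequence, and it holds no capitals because it is not coding.

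Markers of fibroblasts and meninges, cells known to make type I collagen, had a summed coverage in every mild mouse above that in any naïve mouse. In EAE_4 this was through Fn1 alone. Fn1 made up most of the sum in every EAE mouse (3150 of 3664 in EAE_7), so the sum is largely a value of that gene. Of 6 genes (Dcn, Lum, Pdgfra, Fn1, Igf2 and Slc6a13), 5 were footprinted in some mouse and Lum in none. Their summed covered nucleotides were 0 to 998 in naïve, 1265 to 3664 in mild and 150 to 4699 in severe EAE. Fn1, fibronectin, had 0, 815 and 813 in the naïve mice and 150 to 4699 in all 7 EAE mice. Without Fn1, EAE_4 had 140 (all Igf2), below the 185 of Naïve_3 (also Igf2). Dcn, decorin, a proteoglycan that binds collagen fibrils, had none in naïve mice, 240 and 365 in EAE_3 and EAE_7 and 203 in EAE_1. Pdgfra had 140 in EAE_1 alone and Slc6a13 149 in EAE_7 alone. The part of these in the collagen result was not tested. In bulk cord a difference in the number of cells of a type cannot be told apart from one in RNA per cell. The matched inputs were not analysed here, so RNA level and binding cannot be told apart either.

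Markers of vessels had their highest coverage in naïve mice, but naïve and EAE mice overlapped. Summed over 6 endothelial genes, covered nucleotides were 38 to 3507 in naïve, 0 to 1733 in mild and 0 to 1208 in severe EAE. Over 5 mural genes they were 0 to 2346, 0 to 436 and 0 to 741. Naïve_2, the naïve mouse with type I footprints, had the highest value of both lists. Naïve_1 had the lowest naïve values, 38 and 0, below the highest mild and the highest severe value of each list.

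The genes that make, partner or bind collagens are given by counts, to be read against the 18.3%, 17.3% and 5.86% of all protein-coding genes footprinted in at least 2 naïve, mild and severe mice. Of 26 processing enzymes and chaperones, which hydroxylate, fold, trim or crosslink collagen chains, 20 had a footprint in some mouse, 3 in at least 2 naïve mice, 5 in at least 2 mild mice and 0 in at least 2 severe mice. Plod3, a lysyl hydroxylase, was the only one footprinted in all 3 naïve mice (148, 372 and 273 covered nucleotides). None had a footprint in EAE_1, EAE_2 or EAE_6. Serpinh1, the collagen chaperone, had 134 in Naïve_2 alone.

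Of 16 non-collagen basement membrane genes, 12 were footprinted in some mouse, with 7, 8 and 2 in at least 2 naïve, mild and severe mice. Lamc1, a laminin chain, had 137 to 1191 in naïve mice, 163 to 927 in mild mice, and 284 and 1079 in EAE_2 and EAE_5. Agrn, agrin, had 515 to 1159 in naïve and 332 to 1174 in mild mice. Sparc, a collagen-binding protein of the matrix, was footprinted in 9 of 10 mice, EAE_2 excepted. Of 7 collagen receptors, 3 were footprinted. Itgb1, the shared integrin β1 chain, had none in naïve mice, 776 and 788 in EAE_3 and EAE_7 and 349 in EAE_5, whereas the receptor kinase Ddr1 had 137 to 387 in naïve mice, 295 and 117 in EAE_3 and EAE_4 and 1002 in EAE_5.

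Of the 17 collagen stretches covered in at least 2 severe EAE mice (962 nt), 11 lay in Col1a1 and Col1a2, 3 in Col4a2 and 3 in Col16a1. EAE_5 was among the mice of all of them but the following. These were a Col1a1 stretch of 35 nt, in EAE_1 and EAE_2, and a Col1a2 stretch of 108 nt, in EAE_1 and EAE_6.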

How the data were processed

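Per the submitters' processing notes and the paper's methods, the authors extracted reads with bcl2fastq 2.19.0.316, trimmed them with fastp and built contigs from them with rnaSPAdes. The contigs were placed on GRCm38 by minimap2 2.17 with splicing allowed. Sites also present in a mouse's own input or in an IgG pool were then removed using bedtools, and those that overlapped were joined. The deposited lists, 1 per mouse, give positions only (chromosome, start and end), with no strand, score, ratio or read count. The depth behind a footprint is therefore unknown, and a gene without one is a gene where none was retained. The paper calls sequencing depth similar among samples. By its counts of mapped unique reads, EAE_5 was highest among the immunoprecipitations and EAE_2 among the inputs. The part of library depth in list length was not tested. The inputs and IgG pools were not analysed here. The labels name antibody clone 9H10, and the paper's methods another clone.

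Of 136207 footprints, 135636 lay on chromosomes 1 to 19, X and Y, with 0 past a chromosome end. No 2 lists were identical (0 pairs). Collagen genes, the gene lists, the rule for named genes (every collagen gene footprinted in at least 3 of 10 mice, with all values for the first 10 by number of mice and then covered nucleotides) and the tests were chosen with earlier results of these data known. Covered nucleotides and footprints were computed for every protein-coding gene of GENCODE M21 with Python 3.11.15, numpy 2.4.6 and scipy 1.17.1, and compared between groups by exact permutation tests. Sequence was read with samtools 1.23.1 from GRCm38. UAG and AGGU were searched on the strand of the gene only. Scripts were tested on simulated data in which all mice had the same list size. That does not cover lists as unequal as these. Alternatives were minimum and maximum footprint length, minimum overlap, exons alone, footprints in a single gene, gene spans with 1000 nt added, merging within 50 nt, scaling to 1000000 covered nucleotides, a log2 scale with a pseudocount of 1, genes footprinted in at least 1 mouse, type IV alone as basement membrane collagens, leaving out each mouse and, chosen after seeing the data, leaving out the 3 short severe EAE lists. Figures were drawn with matplotlib 3.10.9. Replicates are separate mice.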

Additional observations from a re-analysis of the deposited data

Results flagged for a closer look

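With 4 mice in severe EAE, 15 of 23 values examined had 1 mouse far from the others by Dixon's test at the 95% level. Chance flags about 1 in 20 groups where values are continuous, but in 13 of the 15 the other 3 mice were tied at 0, where any value of the remaining mouse is flagged and that rate does not apply. The first was the collagen share of all footprints, 5.74% in EAE_2, the list of 209 footprints. The other 14 were covered nucleotides in EAE_5, the longest list, in genes where the other 3 severe mice had none, with the exception of 201 nt of Col16a1 in EAE_1: Col16a1 (1427 nt), Col11a1 (1910 nt), Col11a2 (1871 nt), Col4a1 (677 nt), Col6a1 (471 nt), Col27a1 (329 nt), Col5a2 (133 nt), Col24a1 (142 nt), Col7a1 (152 nt), Col5a1 (334 nt), Col5a3 (256 nt), Col6a2 (386 nt), Col9a2 (338 nt) and Col4a5 (147 nt). Col1a1, Col1a2, Col3a1 and Col4a2 were not among them.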

How the results depend on the processing

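Over all alternatives run, no collagen gene passed the test (0 called in each). With so few mice a pass would have needed very many genes at the smallest possible permutation p. Without EAE_1, EAE_2 and EAE_6 that p is 0.0286. These results are therefore no measure of stability. The difference in collagen share of footprints, EAE minus naïve, stayed above 0, from 0.332 to 1.19 percentage points when 1 mouse was left out, 0.444 as a share of covered nucleotides and 0.363 without EAE_1, EAE_2 and EAE_6. Pairing EAE_1, EAE_2 and EAE_3 with the naïve mice of the same number as a replicate block gave 1.95, but the numbers name different animals and pair nothing. Counts of genes in at least 2 mice ran from 10 to 13 in naïve, 17 to 19 in mild and 2 to 5 in severe EAE with 1 mouse left out. Col1a1 (487 to 791 nt) and Col1a2 (202 to 290 nt) kept their direction whichever mouse was left out, as did Col4a2 (-582 to -252 nt), Col4a1 (-445 to -229 nt) and Col11a2 (-574 to -242 nt). The sign turned for Col16a1 (-366 to 84.4 nt), Col11a1 (-919 to 1 nt), Col6a1 (-144 to 85.1 nt), Col27a1 (-165 to 89.6 nt) and Col5a2 (-91.7 to 59.5 nt). It also turned for Col5a2 within exons (-1 nt) and for Col16a1 per 1000000 covered nucleotides (81.8). Without EAE_1, EAE_2 and EAE_6, chosen after seeing the data, it turned for Col16a1 (545 nt), Col4a2 (123 nt), Col11a1 (373 nt), Col11a2 (321 nt), Col6a1 (209.6 nt) and Col27a1 (169 nt). These 3 lists hold few footprints, and they are the severe mice other than EAE_5, which the paper describes as an outlier. Footprints carry no depth, so a gene's absence from a short list is no measure of its level.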
